A study of Mus musculus with 6 samples.

Results

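The 10 genes Pard3, Pard3b, Pard6a, Pard6b, Pard6g, Prkci, Prkcz, Llgl2, Crb3 and Scrib encode members of the Par, Crumbs and Scribble complexes. These complexes set the apical and basal sides of an epithelial cell. Other members, among them Mpp5, Patj, Dlg1 and Llgl1, were outside the 10. The 10 genes were chosen by gene symbol for their known action with CDC42, and all 10 were found among the 55276 rows of the expression table. The choice was made with earlier results of these data known. RNA was measured in whole mouse oviducts on day 2 of pregnancy, with 3 libraries of Cdc42f/f control mice and 3 libraries of PgrCreCdc42f/f mice. Both genotypes were on the C57BL/6 strain and carried loxP sites around exon 2 of both Cdc42 alleles, and by the methods of the study the females were at least 8 weeks old and the controls were littermates. In PgrCreCdc42f/f mice 1 Pgr allele also carried Cre (PgrCre/+), so that Cdc42 is deleted where the progesterone receptor gene is active. By the immunostaining of the study, CDC42 protein was missing from the isthmus and still present in the ampulla, and the libraries held the whole oviduct. No library carried PgrCre without floxed Cdc42, so the presence of Cre and the loss of Cdc42 cannot be told apart. The labels call the libraries biological replicates without saying how many animals each held, so p-values measure only the spread between these samples.

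In polarised epithelia PAR6 joins active CDC42 to an atypical protein kinase C (aPKC), and PAR3 brings this module to the apical junctions. The kinase phosphorylates proteins of the basolateral side, among them LGL, and so keeps them out of the apical domain, while Crumbs marks the apical membrane and Scribble the lateral one. The epithelium of the oviduct, made of multiciliated and secretory cells, carries its cilia and microvilli on this apical side.

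None of the 10 polarity complex genes passed the test for a difference between the genotypes. In limma on log2(RPKM + 0.1), fitted over the 17584 genes with at least 0.5 RPKM in at least 3 of the 6 libraries, 0 of the 10 were called higher and 0 lower at an adjusted p below 0.05. Of all tested genes 1.65% were called, 0.762% higher and 0.893% lower, so 0 of 10 genes is near this background. This background moved with single libraries. Against 134 genes called higher and 157 lower from all 6, the numbers were 9 and 3 when Cdc42f/f replicate 3 was left out, 12 and 4 without PgrCreCdc42f/f replicate 2, 13 and 3 without Cdc42f/f replicate 2, 22 and 13 without Cdc42f/f replicate 1, and 31 and 26 without PgrCreCdc42f/f replicate 3. Without PgrCreCdc42f/f replicate 1 they stayed alike, at 132 and 179. At an unadjusted p below 0.05 the count was again 0 of 10, beside 20.8% of all tested genes. In 0 of the 10 genes did the values of the 2 genotypes separate without overlap, beside 27.4% of all tested genes. Limma voom on reads recovered from the values also called 0 of the 10, with 0 at an unadjusted p below 0.05, and called 3.0% of all genes it tested. RPKM are reads per kilobase of gene, scaled to the depth of a library, and each difference below is the PgrCreCdc42f/f mean minus the control mean of log2(RPKM + 0.1), a scale on which changes of low genes come out too small. In bulk tissue, fewer cells of a type and less RNA per cell cannot be told apart.

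The differences of the 10 genes lay between -0.35 and 0.13, with 6 above 0 and 4 below. After the mean of the epithelial markers was subtracted in each library, all 10 were below 0, and the median of all tested genes moved from 0.01 to -0.13. The median difference was 0.04 and the median absolute difference 0.11, against 0.01 and 0.19 over all tested genes. The 95% intervals of 8 genes lay between 0.734-fold and 1.32-fold. Those of Pard6a (0.567-fold to 1.09-fold) and Pard6g (0.796-fold to 1.45-fold) were wider. These intervals are the limit of the comparison, and a p above the threshold does not show equal levels.

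**Figure D1:**
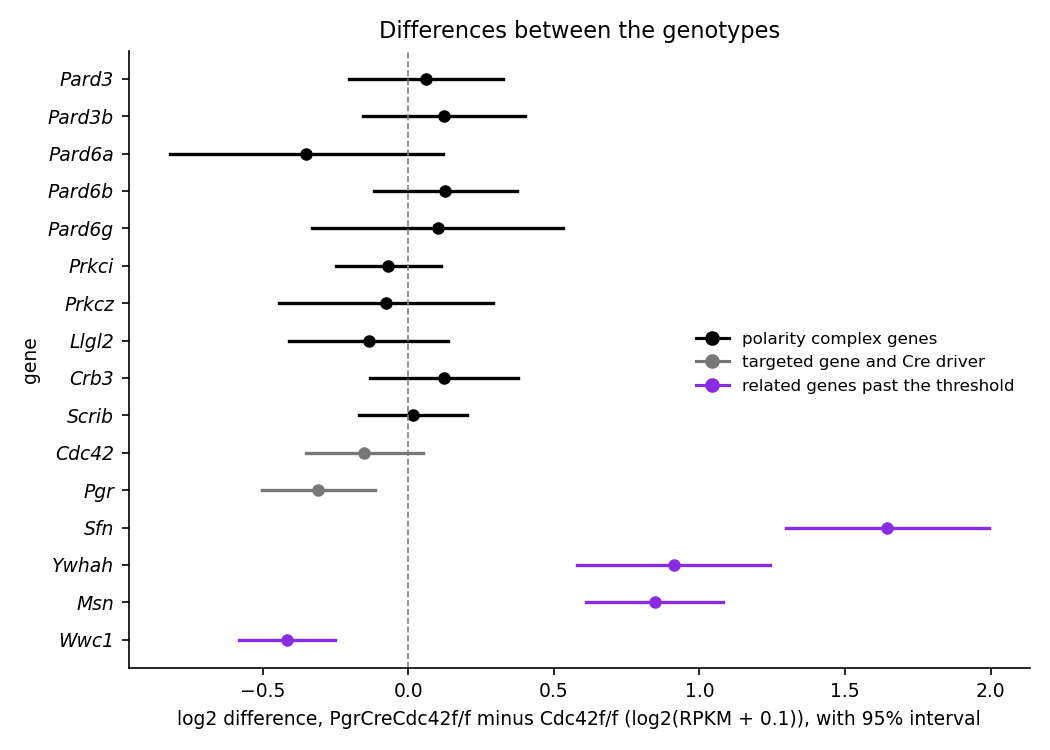
Log2 difference (x axis, PgrCreCdc42f/f minus Cdc42f/f on log2(RPKM + 0.1)) of each gene (y axis), with the limma estimate as a point and its 95% interval as a line, n = 3 libraries a genotype. The intervals of all 10 polarity complex genes (black) contain 0, with the lowest point at -0.35 for Pard6a, while Sfn, Ywhah, Msn and Wwc1 (violet), chosen from related genes because they passed the threshold, lie away from 0.

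The targeted gene and the Cre driver were read as a check of the labels. Cdc42 (chromosome 4, 137319696 to 137357720) was at 127.6, 130.2 and 142.4 RPKM in Cdc42f/f, against 113.6, 125.5 and 120.9 RPKM in PgrCreCdc42f/f libraries. All 3 PgrCreCdc42f/f values were below the 3 control values, and the difference of -0.15 (SE 0.08) was not called (limma, adjusted p = 0.359). Since exon 2 alone is floxed and the value covers the whole gene, it is a weak check. The study itself reported Cdc42 RNA by qPCR and CDC42 protein by western blot as reduced in PgrCreCdc42f/f oviducts. Pgr had a mean of 13.4 ± 0.957 RPKM in controls, against 10.8 ± 0.213 RPKM with PgrCre (SD, n = 3 each), and was not called either (limma, adjusted p = 0.105). Depth was alike, with 42.4 M to 46.4 M recovered reads (M, 1e6) per library, and the first principal component, with 37.8% of the variance, separated the genotypes.

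In control oviducts the 10 genes formed a higher and a lower group by RPKM, a measure per length that allows levels of genes to be compared. Prkci (16.6 ± 0.942 RPKM, SD, n = 3), Crb3 (16.5 ± 0.665 RPKM) and Llgl2 (16.3 ± 1.74 RPKM) stood highest, at percentiles of 82.3 to 82.6 of tested genes, and their ranges overlapped. Scrib (13.6 ± 0.717 RPKM) lay below all 3 values of Llgl2, and Prkcz (10.9 ± 1.46 RPKM) below all 3 of Scrib. The lower group opened with Pard6b (5.53 ± 0.281 RPKM) and went on with Pard3 (4.77 ± 0.171 RPKM), Pard6a (4.41 ± 0.603 RPKM), Pard6g (3.85 ± 0.466 RPKM) and Pard3b (3.04 ± 0.310 RPKM). Pard6b did not overlap with Pard3. From Pard3 on, each gene overlapped with the next in the order. Pard3 lay wholly above Pard6g and Pard3b, and Pard6a wholly above Pard3b, so that in the lower group only neighbours in this order were not separated by the spread of the libraries.

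**Figure D2:**
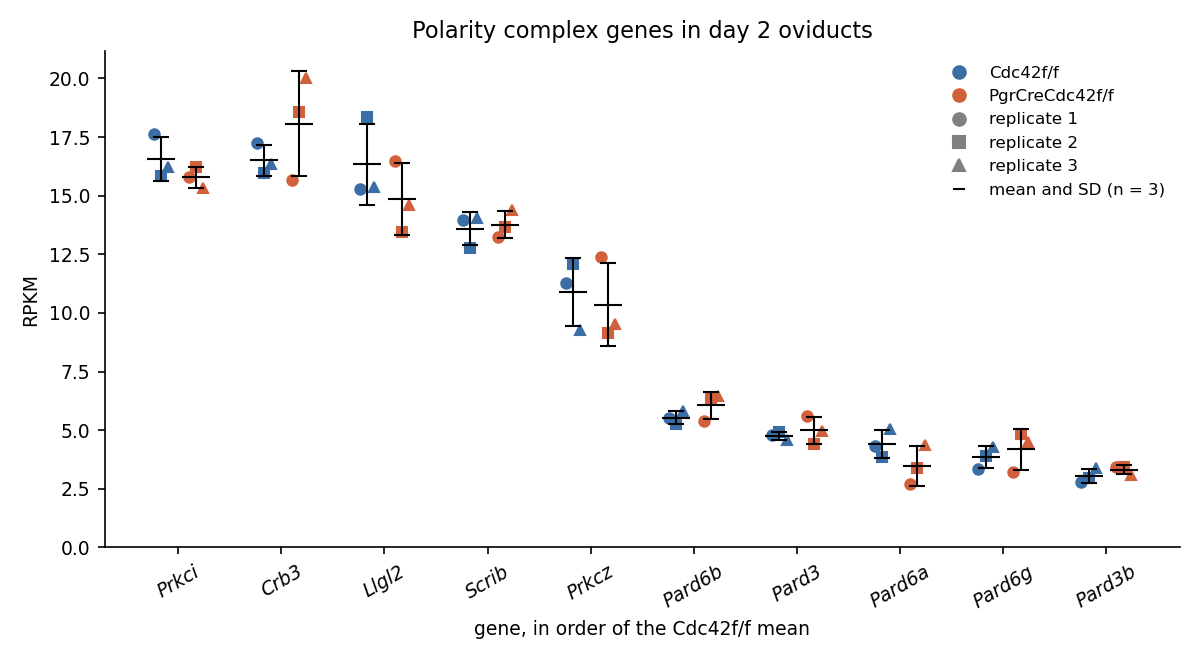
RPKM (y axis) of the 10 polarity complex genes (x axis, in order of the Cdc42f/f mean) in each Cdc42f/f library (blue) and PgrCreCdc42f/f library (orange), with circles, squares and triangles for replicates 1, 2 and 3 and black marks for the mean and SD of 3 libraries. Both colours overlap in every gene, and the 5 genes on the left lie above 9 RPKM in all 6 libraries while the 5 on the right lie below 7 RPKM.

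Both atypical kinase genes belonged to the higher group. Prkci encodes aPKC iota, the atypical PKC of most epithelia (chromosome 3, 30995747 to 31052959, plus strand; coordinates here are those of GENCODE M21 on GRCm38). It was at 17.6, 15.8 and 16.2 RPKM in Cdc42f/f, against 15.8, 16.2 and 15.3 RPKM in PgrCreCdc42f/f libraries. Control replicate 1 was the highest of the 6 and the other 5 lay close together. The difference was -0.07 (SE 0.07, limma adjusted p = 0.645), with a 95% interval from 0.842-fold to 1.08-fold. Its residual SD of 0.06 on the log2 scale stood at the 6.44th percentile of tested genes, the narrowest spread among the 10.

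Prkcz, which encodes aPKC zeta (chromosome 4, 155260129 to 155361361, minus strand), spread more. It was at 11.3, 12.1 and 9.27 RPKM in Cdc42f/f, against 12.4, 9.15 and 9.51 RPKM in PgrCreCdc42f/f libraries. Each genotype held both high and low libraries, and the highest and the lowest of the 6 values both belonged to PgrCreCdc42f/f. The difference of -0.08 (SE 0.15, limma adjusted p = 0.812) was within this spread, and it was 0.00 without Cdc42f/f replicate 2 and also without PgrCreCdc42f/f replicate 2. Prkci gave 60.4% ± 3.49 of the summed RPKM of both kinases in Cdc42f/f and 60.6% ± 4.06 in PgrCreCdc42f/f oviducts (SD, n = 3 each; exact two-sided permutation test, p = 0.9).

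Because the kinases are paralogs, reads could in principle be shared between them, and the longest stretch of identical coding bases was looked up. In their coding sequences of 1785 and 1776 bases it measured 22 bases. It is shown here in capitals within 20 bases on either side, from exon 10 of each gene, which encodes part of the kinase domain.
Prkci, chr3:31038457-31038518, plus strand: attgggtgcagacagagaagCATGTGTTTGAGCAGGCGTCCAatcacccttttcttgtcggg
Prkcz, chr4:155286809-155286870, minus strand: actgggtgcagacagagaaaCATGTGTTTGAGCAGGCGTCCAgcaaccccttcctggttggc
The read length is not given in the sources used here, so how many reads fit within a run of this length was not examined.

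PAR6 is the adaptor that binds active CDC42, and its 3 genes were each measured. Pard6a (chromosome 8, 105701148 to 105703496) was at 4.31, 3.86 and 5.06 RPKM in Cdc42f/f, against 2.69, 3.38 and 4.37 RPKM in PgrCreCdc42f/f libraries. PgrCreCdc42f/f replicates 1 and 2 lay below all 3 controls, while replicate 3 lay between control replicates 1 and 3. The difference of -0.35 (SE 0.20) was the furthest from 0 among the 10 genes and was not called (limma, adjusted p = 0.363). Without PgrCreCdc42f/f replicate 3 it was -0.52 (adjusted p = 0.223), and without PgrCreCdc42f/f replicate 1 it was -0.18 (adjusted p = 0.577). Pard6a was also the gene with the fewest recovered reads, 199 to 386 per library, which alone gives a counting error of 7.09% at the lowest, and its residual SD of 0.28 stood at the 68.4th percentile.

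Pard6b (chromosome 2, 168081004 to 168101203) was the highest of the PAR6 genes, at 5.52, 5.25 and 5.82 RPKM in Cdc42f/f, against 5.41, 6.31 and 6.47 RPKM in PgrCreCdc42f/f libraries. PgrCreCdc42f/f replicates 2 and 3 stood above all controls and replicate 1 within them (difference 0.13, SE 0.10, limma adjusted p = 0.525). Pard6g (chromosome 18, 80046890 to 80119639) was at 3.36, 3.89 and 4.29 RPKM in Cdc42f/f, against 3.21, 4.82 and 4.504 RPKM in PgrCreCdc42f/f libraries. Its lowest and highest values again both came from PgrCreCdc42f/f libraries, replicates 1 and 2 (difference 0.10, SE 0.18, limma adjusted p = 0.787).

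The summed RPKM of the PAR6 genes was 13.8 ± 1.196 in Cdc42f/f and 13.7 ± 2.13 in PgrCreCdc42f/f oviducts (SD, n = 3 each). Within this sum Pard6a held 32.6%, 29.7% and 33.3% in Cdc42f/f and 23.8%, 23.3% and 28.5% in PgrCreCdc42f/f libraries. The genotypes did not overlap in this share, with means of 31.9% ± 1.93 and 25.2% ± 2.87. Pard6b held 41.9%, 40.4% and 38.4% in Cdc42f/f and 47.8%, 43.5% and 42.2% in PgrCreCdc42f/f libraries, again without overlap. In the exact two-sided permutation test both shares reached p = 0.1, the smallest that 3 against 3 libraries can give, and 0.35 after Benjamini-Hochberg adjustment over the 7 paralog shares tested, so neither passed. The 3 shares of a family sum to 100% and are not independent of each other. Pard6g held 27.9% ± 2.24 and 30.3% ± 2.56 (exact permutation p = 0.4).

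**Figure D3:**
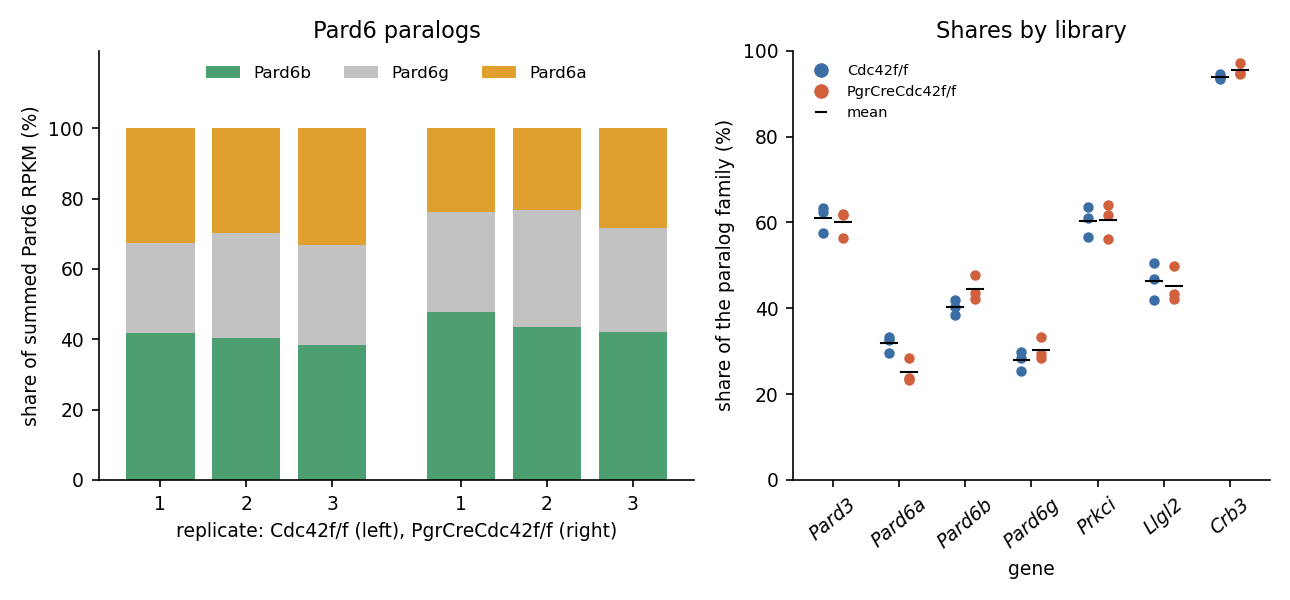
Left, the share (y axis, %) of Pard6b (green), Pard6g (grey) and Pard6a (yellow) in the summed Pard6 RPKM of each library (x axis). Right, the share of each gene in its paralog family by library, with blue points for Cdc42f/f, orange points for PgrCreCdc42f/f and a black bar for the mean of 3 libraries. The Pard6a share lies between 29.7% and 33.3% in Cdc42f/f and between 23.3% and 28.5% in PgrCreCdc42f/f libraries.

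For the PAR6 genes the longest stretch of identical coding bases was looked up in the same way, without a measure of their total identity. It was 14 bases between Pard6a and Pard6b, 25 between Pard6a and Pard6g and 22 between Pard6b and Pard6g. The run shared by Pard6a and Pard6b, in capitals below with 20 bases on either side, lies at the start of the part that encodes the PB1 domain, by which PAR6 binds aPKC. Each sequence joins bases of exons 1 and 2, and its coordinates span the intron between them.
Pard6a, chr8:105701769-105702192, plus strand: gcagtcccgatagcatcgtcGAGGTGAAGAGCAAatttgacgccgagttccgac
Pard6b, chr2:168081325-168087360, plus strand: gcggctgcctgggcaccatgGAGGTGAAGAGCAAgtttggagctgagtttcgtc

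PAR3 is the scaffold that holds the PAR6 and aPKC module at the junctions. By the immunostaining of the study, PAR3 protein was disrupted in the isthmus of PgrCreCdc42f/f mice. The values here are RNA levels of the whole oviduct and do not show where the protein lies. Pard3 (chromosome 8, 127063893 to 127612286) was at 4.78, 4.93 and 4.59 RPKM in Cdc42f/f, against 5.59, 4.43 and 4.96 RPKM in PgrCreCdc42f/f libraries. The controls lay within the wider range of the PgrCreCdc42f/f libraries, where replicate 1 was highest and replicate 2 lowest (difference 0.06, SE 0.11, limma adjusted p = 0.793). Without PgrCreCdc42f/f replicate 1 the difference was -0.02. Its reads came out whole at a gene length of 14849 bases rather than the annotated 14506.

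Pard3b, a paralog of PAR3 that, unlike PAR3, does not bind aPKC (chromosome 1, 61638824 to 62642284), had the lowest control mean of the 10. It was at 2.78, 2.97 and 3.38 RPKM in Cdc42f/f, against 3.43, 3.42 and 3.09 RPKM in PgrCreCdc42f/f libraries. PgrCreCdc42f/f replicates 1 and 2 lay just above the highest control and replicate 3 within the controls (difference 0.12, SE 0.12, limma adjusted p = 0.596). Of its exon bases 4.43% are shared with Pard3bos1 on the opposite strand, and whether the counting used strand is not stated. Pard3 gave 61.1% ± 3.07 of the summed RPKM of the pair in Cdc42f/f and 60.0% ± 3.10 in PgrCreCdc42f/f oviducts (exact permutation p = 0.5).

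Crb3 encodes the short Crumbs protein of the apical membrane of epithelia (chromosome 17, 57059105 to 57065918). It was at 17.2, 15.9 and 16.3 RPKM in Cdc42f/f, against 15.7, 18.5 and 20.02 RPKM in PgrCreCdc42f/f libraries. PgrCreCdc42f/f replicates 2 and 3 were above all controls and replicate 1 below all controls, so that this genotype spread further (difference 0.12, SE 0.11, limma adjusted p = 0.552). Without PgrCreCdc42f/f replicate 1 the difference was 0.22 (limma, adjusted p = 0.204). Crb3 made up 93.9% ± 0.644 of the summed RPKM of the Crumbs genes in Cdc42f/f and 95.5% ± 1.35 in PgrCreCdc42f/f oviducts (exact permutation p = 0.2), and Crb1 was below 0.02 RPKM in every library.

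On the basolateral side, Llgl2 encodes the LGL protein of epithelia, a substrate of aPKC (chromosome 11, 115824049 to 115855780). It was at 15.3, 18.3 and 15.4 RPKM in Cdc42f/f, against 16.5, 13.5 and 14.6 RPKM in PgrCreCdc42f/f libraries. PgrCreCdc42f/f replicates 2 and 3 lay below all controls, while replicate 1 exceeded control replicates 1 and 3 (difference -0.14, SE 0.11, limma adjusted p = 0.541). Its paralog Llgl1 was expressed at a like level, so that Llgl2 gave 46.4% ± 4.32 of their sum in Cdc42f/f and 45.2% ± 4.12 in PgrCreCdc42f/f oviducts (exact permutation p = 0.8).

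Scrib, the lateral scaffold after which the Scribble complex is named (chromosome 15, 76047158 to 76069784), was at 14.0, 12.8 and 14.1 RPKM in Cdc42f/f, against 13.2, 13.7 and 14.4 RPKM in PgrCreCdc42f/f libraries. The values of both genotypes interleaved, with control replicate 2 the lowest. The difference of 0.02 (SE 0.08, limma adjusted p = 0.920) was the nearest to 0 of the 10, its 95% interval ran from 0.890-fold to 1.15-fold, and its residual SD of 0.07 stood at the 7.68th percentile of tested genes.

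The count of 0 genes without overlap depended on single libraries. Without PgrCreCdc42f/f replicate 1, which stood with the controls or beyond them in several genes, Pard6b, Pard6g, Llgl2 and Crb3 separated, 4 of 10 beside 43.0% of all tested genes in that fit. Without PgrCreCdc42f/f replicate 2 these were Pard3 and Prkci (33.7% of all genes), without PgrCreCdc42f/f replicate 3 Pard3b and Pard6a (36.5%), and without Cdc42f/f replicate 3 Pard3b (36.0%). Without Cdc42f/f replicate 1 (42.3%) or 2 (34.0%) the count stayed at 0. In each of these fits limma called 0 of the 10 genes, and in 2 of them 1 gene had an unadjusted p below 0.05, Crb3 or Pard6a.

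PgrCreCdc42f/f replicate 1 also differed from replicates 2 and 3 in the markers of cell types. The summed RPKM of 10 multiciliated cell markers such as Foxj1 was 609 to 862 in Cdc42f/f libraries, 718 in PgrCreCdc42f/f replicate 1, and 442 and 536 in replicates 2 and 3. Within this sum, Tppp3 (247 RPKM) lay above all controls (138 to 199 RPKM) in PgrCreCdc42f/f replicate 1. Rsph1 (80.6 RPKM), Tekt1 (39.6 RPKM) and Hydin (11.7 RPKM) lay below all controls there (89.5 to 109, 41.4 to 52.8 and 14.9 to 24.0 RPKM). The other multiciliated markers lay within the control range. Like the multiciliated sum, Pard3, Prkcz and Llgl2 were higher in PgrCreCdc42f/f replicate 1 than in replicates 2 and 3. Pard3b was almost equal in replicates 1 and 2 (3.43 and 3.42 RPKM), and Prkci in replicate 1 was between its values in replicates 2 and 3. The 10 general epithelial markers summed to 1479 to 1517 RPKM in Cdc42f/f libraries, to 1380 in PgrCreCdc42f/f replicate 1, and to 1590 and 1633 in replicates 2 and 3. The epithelial markers did not move as one either. In PgrCreCdc42f/f replicate 1 Krt18 (368 RPKM) and Krt19 (260 RPKM) lay below all controls (429 to 548 and 316 to 381 RPKM), whereas Epcam (146 RPKM) and Krt8 (287 RPKM) lay above them (111 to 119 and 211 to 215 RPKM). Pard6a, Pard6b, Pard6g, Crb3 and Scrib were likewise lower in PgrCreCdc42f/f replicate 1 than in replicates 2 and 3. No epithelial or multiciliated marker was called (0 of 10 in each list). Of the multiciliated markers 9 of 10 had differences below 0, with a median of -0.49, and of the epithelial markers 4 of 10, with a median of 0.14. In each list 5 of 10 had an unadjusted p below 0.05 in limma, beside 20.8% of all tested genes. The 5 secretory cell markers, a sum made up mostly of Ovgp1, gave 2616 to 3919 RPKM in Cdc42f/f libraries. They gave 1640 RPKM in PgrCreCdc42f/f replicate 1, and 2724 and 3088.5 RPKM in replicates 2 and 3. Of the secretory markers 3 of 5 had differences below 0, with a median of -0.32, 2 of 5 had an unadjusted p below 0.05, and 0 were called. The study reported Foxj1 and Rsph1 as reduced, and fewer ciliated cells in the isthmus. The part of cell makeup in the levels of the polarity genes was not tested. Over the 8 macrophage markers the sums were 175 to 181 RPKM in Cdc42f/f and 220 to 352 RPKM in PgrCreCdc42f/f libraries, with 8 of 8 differences above 0 and 0 called. The 8 smooth muscle markers (8 of 8 above 0, median 0.46, 0 called) and the 6 endothelial markers (6 of 6 above 0, median 0.17, 0 called) had differences on the same side. At an unadjusted p below 0.05 in limma were 4 of 8 macrophage, 4 of 8 smooth muscle and 2 of 6 endothelial markers, beside 20.8% of all tested genes. Of all 17584 tested genes 8950 had differences above 0 and 1.65% were called, so 0 calls in a marker list is near this background. Of the 8 ovarian markers, Inha, Foxl2, Star and Oog1 passed the filter, with control means of 5.69, 5.90, 3.66 and 0.727 RPKM and 0 of 4 called, and Cyp19a1 and Fshr were listed at 0 in all 6 libraries.

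**Figure D4:**
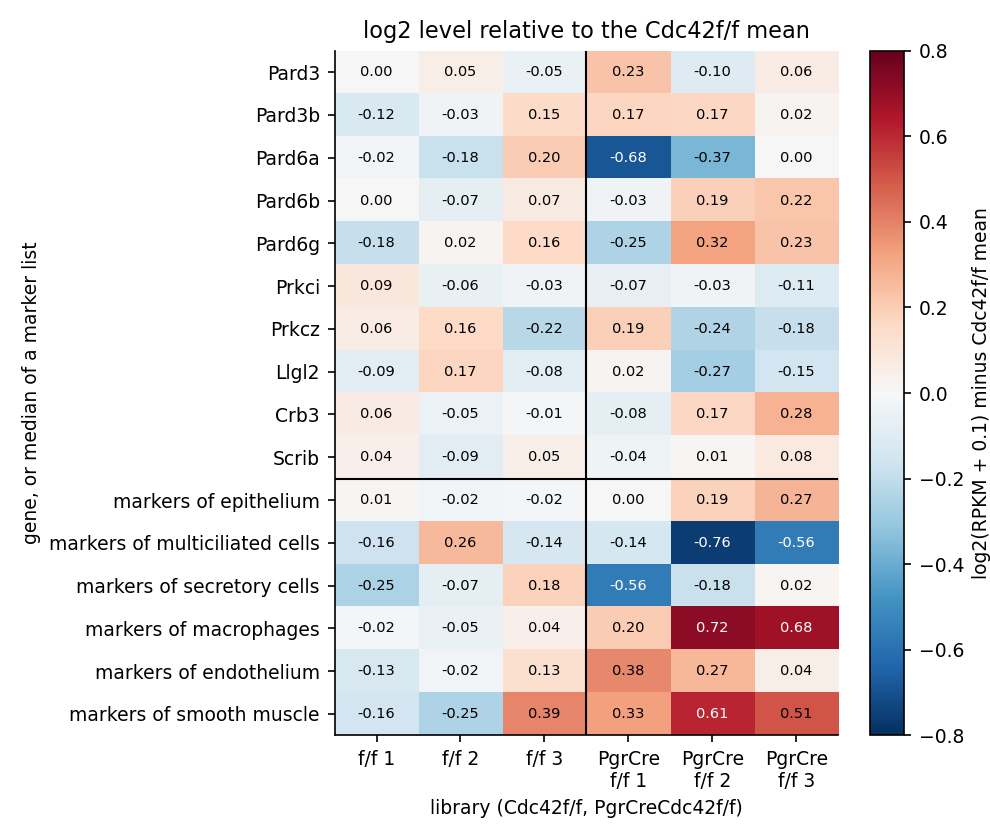
Level of each polarity complex gene, and the median over each of 6 marker lists, in each of the 6 libraries (x axis), as log2(RPKM + 0.1) minus the Cdc42f/f mean, in colour and as a number (red above, blue below the control mean). Pard6a has the lowest value among the 10 genes, -0.68 in PgrCreCdc42f/f replicate 1, and the multiciliated markers are at -0.76 and -0.56 in PgrCreCdc42f/f replicates 2 and 3 but at -0.14 in replicate 1.

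As a description of patterns, the Pearson correlation of log2 values over the 6 libraries was taken between each of the 10 genes and the other genes of the polarity and marker lists, a pool of 154. With 6 points that share genotype, library and tissue makeup, high values arise easily and no test was made. Llgl2 was most like Tiam1 (r = 0.98), Cfap43 (0.93) and Foxj1 (0.93), the last a regulator of motile cilia. Crb3 was most like Ect2 (0.98), Arhgap17 (0.97) and Dlg5 (0.88), and Pard6b most like Ect2 (0.96), Actg2 (0.95) and Arhgef7 (0.95). Pard6a was most like Krt19 (0.99), Col1a1 (0.95) and Col1a2 (0.93). Prkcz was most like Epb41l5 (0.94), Mpp5 (0.93) and Cab39l (0.89). For Pard3b these were Cdh5 (0.91), Emcn (0.91) and Thy1 (0.87), and for Pard3 Ezr (0.90), Tppp3 (0.88) and Uchl1 (0.79). Pard6g, Prkci and Scrib had their closest genes at 0.87 (Numbl, then Lin7b and Kdr), 0.87 (Dlg4, then Esrp1 and Stradb) and 0.83 (Cldn3, then Nectin2 and Ywhaz).

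Around the 10 genes, 89 further genes of polarity were listed in 6 groups, and 84 passed the filter. Of these 3 were called higher, Sfn, Ywhah and Msn, and 1 lower, Wwc1, beside the 0.762% and 0.893% of all tested genes, and the median difference of the 84 was 0.05 against 0.01. The 6 groups were listed with earlier results of these data known, so the shares of all tested genes are not an independent background for them. At an unadjusted p below 0.05 were 22 of the 84, beside 20.8% of all tested genes. In 20 the PgrCreCdc42f/f libraries lay wholly above the controls, and in 10 wholly below, beside 13.5% and 13.9% of all tested genes. Crb1, Lin7a, Dlg2, Plekhg4 and Prkcq were too low to test.

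The list of Par-1, Par-4 and Par-5 genes held 2 of the calls among 16 tested. Par-5 is the name in Caenorhabditis elegans for the 14-3-3 proteins, which bind phosphorylated PAR3 and release it from the membrane. Sfn, which encodes 14-3-3 sigma (chromosome 4, 133600556 to 133602168), was at 4.59, 3.60 and 4.15 RPKM in Cdc42f/f, against 14.6, 13.9 and 10.9 RPKM in PgrCreCdc42f/f libraries, a difference of 1.65 (SE 0.15, limma adjusted p = 0.0136). Ywhah, which encodes 14-3-3 eta (chromosome 5, 33018816 to 33027966), was at 32.7, 23.9 and 28.2 RPKM in Cdc42f/f, against 58.2, 47.2 and 53.7 RPKM in PgrCreCdc42f/f libraries, a difference of 0.91 (SE 0.14, adjusted p = 0.0385). In both genes every PgrCreCdc42f/f library lay well above every control. The call of Sfn was lost without Cdc42f/f replicate 2 (adjusted p = 0.0644), Cdc42f/f replicate 3 (0.0725) or PgrCreCdc42f/f replicate 2 (0.0653), and that of Ywhah without any 1 of the 6 libraries (adjusted p from 0.0601 to 0.108), while the differences stayed at 1.56 to 1.77 and 0.80 to 1.02. The call of Ywhah was also lost with no filter (0.0652), no variance trend (0.0625) and epithelial marker subtraction (0.0508). Ywhag (0.34) and Ywhaq (0.30), which encode 14-3-3 gamma and theta, did not pass (adjusted p = 0.182 and 0.132).

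Of 16 tested partners and substrates of aPKC, Msn rose and Wwc1 fell. Msn encodes moesin, which ties the plasma membrane to actin (chromosome X, 96096042 to 96168552), and was at 22.7, 23.5 and 27.3 RPKM in Cdc42f/f, against 40.6, 46.3 and 45.2 RPKM in PgrCreCdc42f/f libraries, a difference of 0.85 (SE 0.10, limma adjusted p = 0.0223). Moesin is also abundant in leukocytes, and the macrophage, smooth muscle and endothelial marker lists given above all had median differences above 0 (0.56, 0.46 and 0.17). Other lists had a median below 0, among them the 8 stroma markers (-0.22, with 4 genes above 0 and 4 below). The part of these cell types in the change of Msn was not tested. Wwc1 encodes KIBRA, a binding partner of aPKC (chromosome 11, 35838400 to 35980527), and was at 43.6, 46.6 and 44.0 RPKM in Cdc42f/f, against 34.3, 33.8 and 32.3 RPKM in PgrCreCdc42f/f libraries, a difference of -0.42 (SE 0.07, limma adjusted p = 0.0459). The call of Msn held without PgrCreCdc42f/f replicate 1 (adjusted p = 0.0345) and was lost without any other single library (0.0601 to 0.0901), and that of Wwc1 was lost without any 1 of the 6 (0.0626 to 0.146), with differences of 0.79 to 0.93 and -0.43 to -0.39. Slc9a3r1, the ezrin-binding scaffold of microvilli (-0.27, adjusted p = 0.184), and the kinase gene Rock1 (0.22, adjusted p = 0.242) did not pass.

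The other 4 groups held no call, and their counts at an unadjusted p below 0.05 stand beside 20.8% of all tested genes. Among 13 tested genes of the Crumbs and Scribble complexes beside the core (2 at an unadjusted p below 0.05), the smallest p-values belonged to the basolateral scaffold gene Erbin (0.30, limma adjusted p = 0.147) and to the Crumbs scaffold gene Patj (-0.22, adjusted p = 0.234), with Lin7c (0.19) and Dlg1 (0.13) next. Of 17 GTPases and regulators, 4 had an unadjusted p below 0.05, namely the Rac activator gene Tiam2 (-0.62, adjusted p = 0.171), Rac1 (0.18), the CDC42 inactivator gene Arhgap21 (0.21) and the CDC42-related Rhou (0.32). Of 6 tested PKC isoforms outside the atypical class, Prkca was at 0.47 (adjusted p = 0.0576), Prkce at -0.37, Prkcb at 0.50 and Prkch at 0.14, with 3 at an unadjusted p below 0.05. Of 16 junction anchors 6 had an unadjusted p below 0.05. Jam3, an adhesion molecule that binds PAR3, was at 31.7, 38.6 and 37.5 RPKM in Cdc42f/f, against 25.4, 19.7 and 21.03 RPKM in PgrCreCdc42f/f libraries, a difference of -0.71 (SE 0.13) that missed the threshold (limma, adjusted p = 0.0524) and passed it without PgrCreCdc42f/f replicate 1 (-0.81, adjusted p = 0.0443). The tight junction genes Marveld2 (0.67), Ocln (0.34) and Cgn (-0.43) did not pass (adjusted p = 0.101, 0.107 and 0.132).

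**Figure D5:**
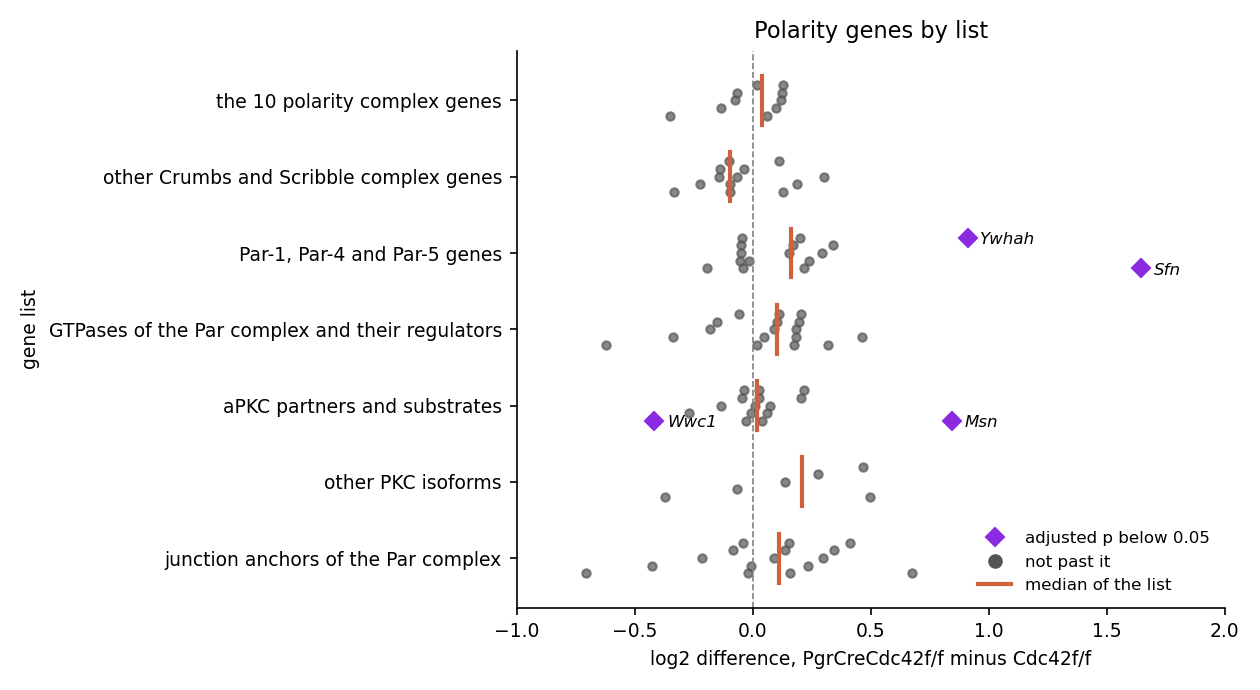
Log2 difference (x axis, PgrCreCdc42f/f minus Cdc42f/f) of every tested gene of the core and of the 6 further lists (y axis), with violet diamonds for genes at an adjusted p below 0.05, grey circles for the others and an orange line for the median of a list. The core spans -0.35 to 0.13 with a median of 0.04, and the 4 diamonds are Sfn, Ywhah, Msn and Wwc1.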

How the data were processed

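The authors deposited 1 table of RPKM values for 55276 gene symbols in the 6 oviduct libraries, sequenced on a BGISEQ-500 from total RNA. Per the labels, the processing notes name HISAT2, edgeR and mm10 (GRCm38), while the methods of the study name Tophat2, and strand is not stated. Groups came from sample titles, and 0 value columns belonged to no sample. Genes with at least 0.5 RPKM in at least 3 libraries were tested with limma 3.58.1 in R 4.3.3 (lmFit, eBayes with trend, no covariates) on log2(RPKM + 0.1), with Benjamini-Hochberg adjustment over all tested genes and calls at 0.05. Multiplied by exon length (GENCODE M21), 98.8% of 35362 rows gave whole reads (within 0.01 of a read). These reads were used for voom and depth, where 1 read in a 2 kb gene is 0.0104 to 0.0118 RPKM. Shares were tested by exact permutation over 20 splits. Named genes are the 10, Cdc42, Pgr, up to 4 genes with the smallest p per polarity list and 3 with the highest correlation per gene. The fit was tested on simulated data. The members and lists were chosen with earlier results of these data known. Alternatives are given in the closing section.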

Additional observations from a re-analysis of the deposited data

How the results depend on the processing

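Under every alternative run (pseudocounts of 1 and 0.01, no filter, a mean of at least 2 RPKM, median ratio scaling, quantile normalization, no variance trend, the replicate block, epithelial marker subtraction, voom and each library left out) 0 of the 10 polarity complex genes were called, and the smallest adjusted p of any was 0.168. Subtracting the epithelial marker mean moved the median of all genes to -0.13 and turned the signs of Pard3 (-0.071), Pard3b (-0.0098), Pard6b (-0.0037), Pard6g (-0.030), Crb3 (-0.0075), Scrib (-0.11) and Dlg1 (-0.0030), and 2 of the 10, Pard6a and Prkci, then separated. The share of all tested genes that separated after this subtraction was not counted, so the 2 cannot be read as a result about the 10. With single libraries left out, Pard3 ranged from -0.023 to 0.14, Pard6g from -0.010 to 0.28, Prkcz from -0.21 to 0.0041, Scrib from -0.027 to 0.044, the genes without overlap from 0 to 4, and the share differences (percentage points) of Pard3 from -2.81 to 0.737, Prkci from -1.73 to 2.38 and Llgl2 from -3.59 to 0.810. From reads rather than RPKM, the Pard6a share difference was -4.43 (exact permutation p = 0.1) in place of -6.70, and that of Crb3 4.94 in place of 1.57. Of the other polarity genes, 0 to 2 were called higher and 0 to 1 lower with 1 library left out. None was called lower with no filter, quantile normalization or no variance trend, 2 in place of 3 were called higher with no filter, no variance trend or epithelial marker subtraction (Ywhah was lost), and voom called 2 lower (Jam3 joined) and 4 higher (Prkca joined). Deviations of same-numbered libraries from their group means correlated at -0.03, -0.07 and 0.08. Libraries with different numbers were not set beside them, so these values cannot settle whether the replicate numbers pair the samples. With the replicate block 0 of the other polarity genes were called higher and 0 lower, as 0 of all genes were. Among all tested genes the calls (higher and lower) numbered 134 and 157 as reported, 252 and 258 by voom, 57 and 51 with no filter, 75 and 112 with no variance trend, 91 and 318 with epithelial marker subtraction. With 1 library left out they ranged from 9 and 3 without Cdc42f/f replicate 3 to 132 and 179 without PgrCreCdc42f/f replicate 1.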
